A study of Sus scrofa with 6 samples.

Results

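Chemokines are small secreted proteins that guide leukocytes, and the genes described here are the pig genes for these ligands and for the receptors that bind them. Genes were taken by the symbol that the array annotation gives: those whose symbol begins with CCL, CXCL, CCR, CXCR, CX3C, XCL, XCR, ACKR or AMCF, together with IL8, PF4, PPBP, DARC and CCRL2 where present. This gave 36 genes, 26 ligands and 10 receptors, of 11763 genes tested. Lung tissue came from adult male German landrace pigs, all of which had undergone extended partial hepatectomy (ePHx), the removal of most of the liver, a day before. The 3 control pigs had received Ringer's solution as vehicle, and the 3 MSC-treated pigs had received pig bone marrow mesenchymal stromal cells (pBM-MSC), differentiated in culture towards hepatocytes, by central venous transfusion. Lungs of pigs without ePHx were not analysed here, so both groups carry the effect of the operation. Each lung was measured on 1 Affymetrix porcine gene array, and values are log2 signals, on which a difference of 1 is a doubling.

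Chemokine receptors are G protein-coupled receptors on leukocytes. Ligands of the CXC class that carry an ELR motif, such as IL8, attract neutrophils through CXCR2, while CXCL9, CXCL10 and CXCL11 are induced by interferons and attract activated T cells and NK cells through CXCR3. Many CC ligands attract monocytes, lymphocytes or eosinophils, and CCL19, CCL21 and CXCL12 steer the steady traffic of lymphocytes and progenitors. Atypical receptors such as DARC and CXCR7 bind chemokines without G protein signalling and clear or transport them. In the lung, chemokines come from epithelium, endothelium, macrophages and the leukocytes themselves.

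The arrays are of whole lung tissue, in which fewer cells of a type and less RNA per cell cannot be told apart. The lung epithelial marker SFTPC, a surfactant protein, gave log2 signals between 12.27 and 12.54 on all 6 arrays. The mean of the 23 antigenomic probe sets, which match no pig sequence and stand for background, lay between 3.88 and 4.24 per array. Correlations between arrays across genes lay between 0.963 and 0.989. A mark of unstated meaning, b-T, stands in the names of 3 arrays (here called the mark, and arrays that bear it are called marked). It belongs to control replicates 1 and 3 and MSC-treated replicate 2, as read by matching array values, so it is unequally spread over the groups, and differences inside each set of arrays are given beside the results. Of the 36 genes, 32 lay above the antigenomic mean on all 6 arrays, and AMCF-II, CCL1, CCL11 and CCL20 did not.

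In the MSC-treated lungs, CXCL11 and XCL1 were higher than in control lungs, and IL8, PPBP and DARC were lower. A gene was called where it passed the thresholds of the study's methods, an unadjusted p under 0.05 in limma and a log2 fold change of 0.5 or more in size. By this rule 2 genes of the family rose, against 0.655% of all genes tested, and 3 fell, against 1.21% of all genes. Together these are 5 of 36, or 13.9%, against 1.86% of all genes. After Benjamini-Hochberg adjustment over all genes, limma called 0 of the 36 genes and 0 genes in all, with 6 of the 36 and 323 genes in all at an unadjusted p under 0.05. The log2 fold change was positive for 14 genes of the family and negative for 22, with a median of −0.16, beside a median of −0.00 over all genes. All 3 MSC-treated arrays lay above all 3 control arrays for CXCL9, CXCL11, XCL1 and CCL1, 4 of 36 genes against 3.6% of all genes, and below them for IL8, PPBP, CXCL17 and CXCR7, 4 of 36 against 3.83%. An exact permutation test of 3 arrays against 3 cannot give a two-sided p below 0.1, which these 8 genes had. CXCL11 and XCL1 were still called with the mark as a covariate, while IL8, PPBP and DARC were not.

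**Figure D1:**
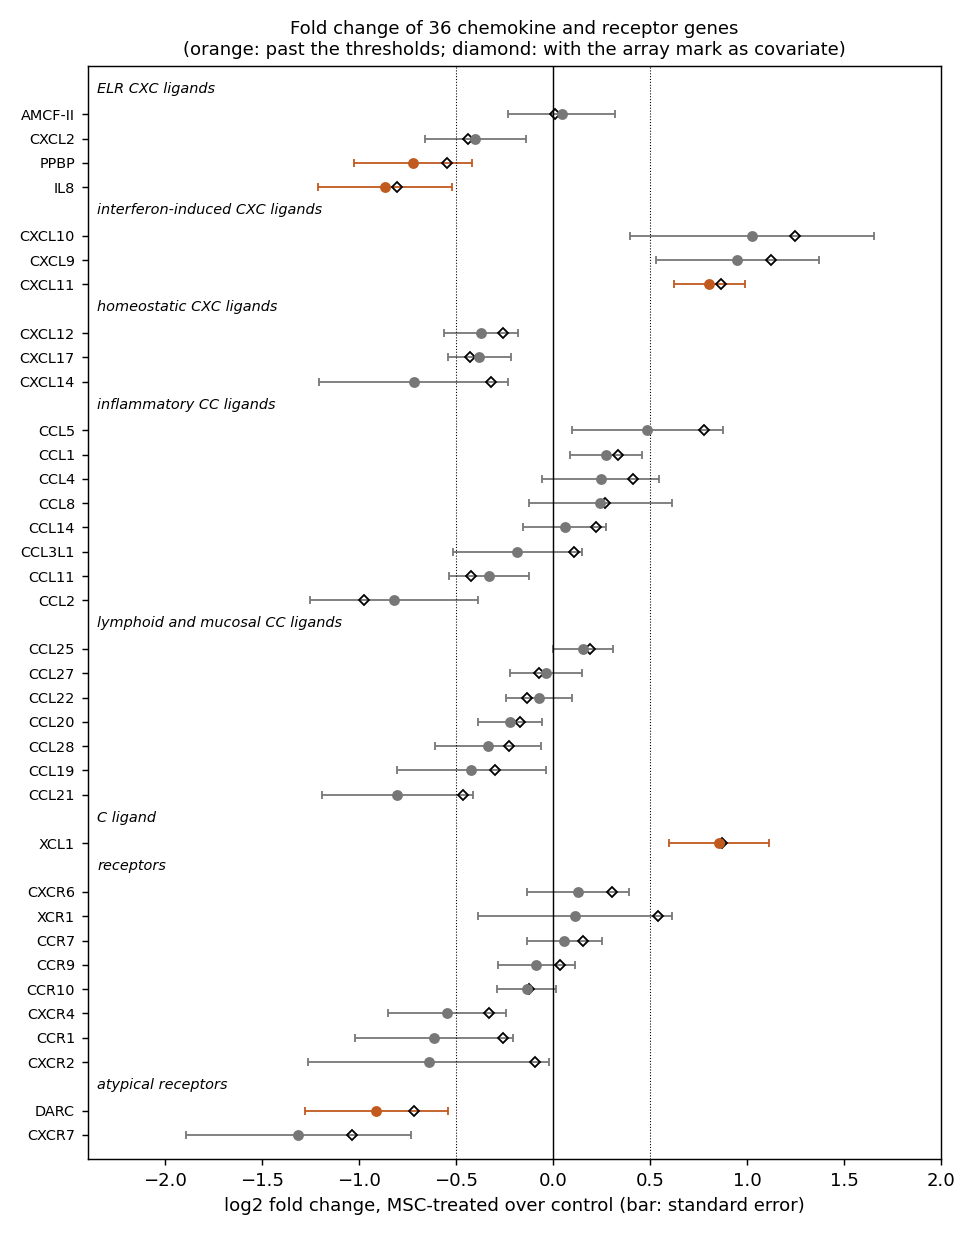
Log2 fold change of MSC-treated over control lungs for each of the 36 genes, ordered by role, with bars of 1 standard error from limma without a covariate (3 arrays per group). The interferon-induced CXC ligands and XCL1 lie to the right of 0, and the atypical receptors and 3 of the 4 ELR CXC ligands lie to the left.

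The interferon-induced ligands CXCL9, CXCL10 and CXCL11 all had higher means in MSC-treated lungs, with a median log2 fold change of 0.95. CXCL11 read 4.49, 4.68 and 4.79 in control replicates 1, 2 and 3 and 5.41, 5.73 and 5.24 in MSC-treated replicates 1, 2 and 3. The groups did not overlap, and the log2 fold change was 0.80 (SE 0.18, unadjusted p = 0.0026 and adjusted p = 1.0 in limma). CXCL11 passed the thresholds without each single array, with values from 0.67 to 0.91. CXCL9 read 5.63, 6.35 and 6.12 in the control lungs and 6.58, 7.98 and 6.39 in the MSC-treated lungs. These groups did not overlap either, but the lowest MSC-treated and the highest control array lay close together, and MSC-treated replicate 2 stood well above the rest. Its log2 fold change of 0.95 (SE 0.42) missed the threshold at an unadjusted p of 0.054 in limma.

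CXCL10 read 5.27, 6.53 and 7.71 in the control lungs and 7.25, 8.45 and 6.88 in the MSC-treated lungs. The groups overlapped, since control replicate 3 was higher than 2 MSC-treated arrays, and the log2 fold change was 1.02 (SE 0.63), not past the thresholds. Without control replicate 3 it was 1.63 and was called, while it was 0.41 without control replicate 1 and 0.56 without MSC-treated replicate 2, and not called. CXCL9 was called without control replicate 2 (1.11), MSC-treated replicate 1 (1.15) or MSC-treated replicate 3 (1.25), and was 0.45 and not called without MSC-treated replicate 2. The receptor of these 3 ligands, CXCR3, carries no family symbol in the array annotation. It was found through RefSeq or Ensembl, outside the rule, with a log2 fold change of −0.04 (SE 0.17).

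Between the marked arrays, MSC-treated replicate 2 against control replicates 1 and 3, the log2 difference was 2.11 for CXCL9, 1.96 for CXCL10 and 1.09 for CXCL11. Between the other arrays, MSC-treated replicates 1 and 3 against control replicate 2, it was 0.13, 0.53 and 0.64. The differences within both sets were thus positive for all 3 ligands. A treatment-by-mark term in limma had an unadjusted p of 0.0028 for CXCL9 and an adjusted p of 0.991.

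XCL1, the C-class ligand made by activated NK and CD8 T cells, rose. Its log2 signals were 4.74, 5.48 and 5.14 in the control lungs and 5.72, 6.40 and 5.80 in the MSC-treated lungs. All MSC-treated arrays exceeded all control arrays, and the log2 fold change was 0.86 (SE 0.26, unadjusted p = 0.011 and adjusted p = 1.0 in limma). XCL1 was called without each single array, with values from 0.64 to 1.04. The difference was 1.46 inside the marked set and 0.28 inside the other set, and the treatment-by-mark term had an unadjusted p of 0.021 and an adjusted p of 0.991 in limma. XCR1, the XCL1 receptor that marks cross-presenting dendritic cells, had a log2 fold change of 0.11 (SE 0.50) on its brighter probe set.

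CCL5, made by activated T and NK cells and bound by CCR1, did not pass the thresholds. It read 7.61, 6.83 and 7.01 in the control lungs and 6.98, 8.49 and 7.44 in the MSC-treated lungs. The groups overlapped and only MSC-treated replicate 2 lay above control replicate 1. The log2 fold change was 0.49 (SE 0.39), and 0.06 without MSC-treated replicate 2. With the mark as a covariate it was 0.78 (SE 0.27), which passed the thresholds at an unadjusted p of 0.021 in limma, with an adjusted p of at least 0.988 for every gene of the family.

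Of 11 listed markers of NK and cytotoxic T cells 9 were measured, and 7 of them were not called. The NK receptor genes KLRK1 (1.02, SE 0.33) and KLRD1 (1.04, SE 0.44) were called higher, 2 of 9 beside 0.655% of all genes, and NKG7 had a negative log2 fold change (−0.08). The summed linear signal of the 9 markers was 480 to 708 in the control lungs and 544 to 1322 in the MSC-treated lungs, so that the groups overlapped, and was highest in MSC-treated replicate 2. The summed signal of 5 T cell markers was 483 to 699 in the control lungs and 520 to 1163 in the MSC-treated lungs, with 0 called. With the mark as a covariate, 5 of the 9 NK and cytotoxic markers were called higher, against 1.66% of all genes. In that fit 2 of the 5 T cell markers were called higher as well. The sum of the 9 markers was 684 to 1322 in the marked and 480 to 615 in the other arrays. That of the T cell markers was 664 to 1163 and 483 to 566. The part of these cells in the values of XCL1, CCL5 and the CXCR3 ligands was not tested.

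**Figure D2:**
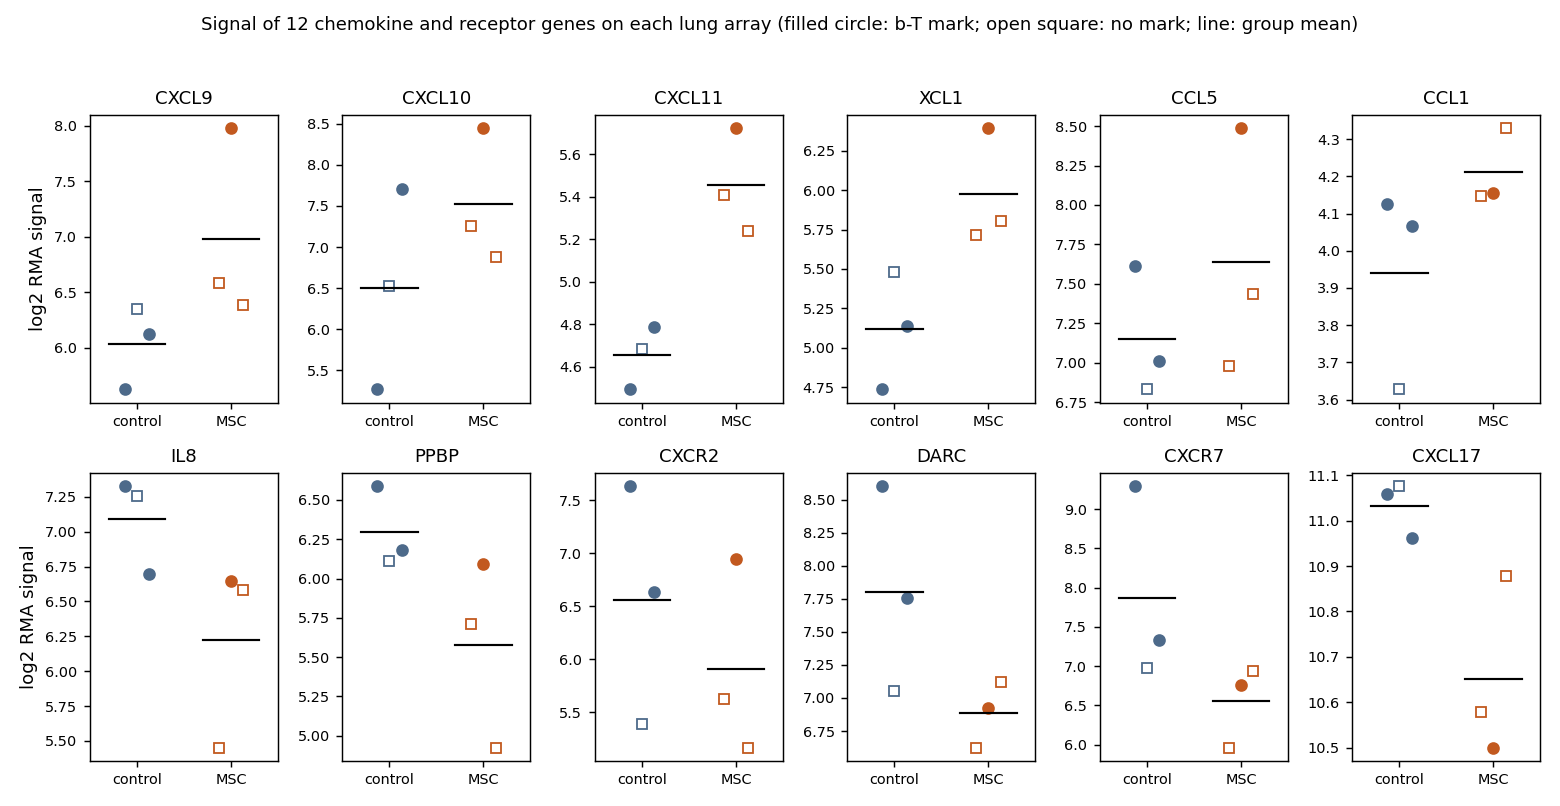
Log2 signal of single arrays for genes of the family, with control and MSC-treated lungs side by side. Filled points are arrays that carry the b-T mark and open points are the others. For CXCL11 and XCL1 every MSC-treated array lies above every control array, and for IL8 and PPBP every one lies below.

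The ligands of CXCR2 were lower or little different in the MSC-treated lungs, and IL8 and PPBP fell. IL8, the main neutrophil attractant, read 7.33, 7.26 and 6.69 in the control lungs and 5.45, 6.64 and 6.58 in the MSC-treated lungs. The groups did not overlap, but control replicate 3 lay only just above 2 of the MSC-treated arrays, and MSC-treated replicate 1 was the lowest. For IL8 the log2 fold change was −0.87 (SE 0.34, unadjusted p = 0.037 and adjusted p = 1.0 in limma). The call was lost without control replicate 1 (−0.75), control replicate 2 (−0.79) or MSC-treated replicate 1 (−0.48).

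PPBP, the platelet basic protein which is cut to a neutrophil attractant after platelets release it, read 6.59, 6.11 and 6.18 in the control lungs and 5.71, 6.09 and 4.92 in the MSC-treated lungs. The groups did not overlap, although MSC-treated replicate 2 lay barely below control replicate 2. PPBP thus had a log2 fold change of −0.72 (SE 0.30, unadjusted p = 0.046 and adjusted p = 1.0 in limma). It was no longer called without control replicate 1 (−0.57), control replicate 3 (−0.78), MSC-treated replicate 1 (−0.79) or MSC-treated replicate 3 (−0.40). The array annotation puts the probe sets of PPBP and CXCL2 in its mixed cross-hybridisation class, so part of their signal may come from related sequences. CXCL2, a further ELR ligand, had a log2 fold change of −0.40 (SE 0.26) on its brightest probe set, and −0.30 and −0.51 on 2 dimmer ones. It was called without MSC-treated replicate 3 (−0.66) and was −0.16 without MSC-treated replicate 1. AMCF-II, a pig neutrophil chemotactic factor, exceeded the antigenomic mean on only 1 array and had a log2 fold change of 0.04.

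CXCR2, the neutrophil receptor for these ligands, varied more between arrays of a group than between groups. It read 7.63, 5.39 and 6.64 in the control lungs and 5.63, 6.94 and 5.16 in the MSC-treated lungs. The 3 marked arrays were the 3 highest. CXCR2 had a log2 fold change of −0.64 (SE 0.62), not past the thresholds. Without control replicate 2 it was −1.22 and called, and it was −0.10 without control replicate 1 and −0.27 without MSC-treated replicate 3. The difference was −0.19 in the marked set and 0.00 in the other set, and with the mark as a covariate −0.09 (SE 0.29).

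The falls of IL8 and PPBP also shrank with the mark as a covariate, to −0.80 (SE 0.36) and −0.55 (SE 0.26), and neither passed the thresholds there. Within the marked arrays IL8 differed by −0.37 and within the others by −1.24, and PPBP differed by −0.30 and −0.80. Both ligands were thus lower within both sets of arrays. Of 7 measured neutrophil markers 6 had a negative log2 fold change, with a median of −0.79, and S100A12 (−0.99, SE 0.35) and VNN2 (−1.42, SE 0.45) were called lower, 2 of 7 beside 1.21% of all genes. Their summed linear signal was 2910 to 8286 in the control lungs, highest in control replicate 1, and 2028 to 2829 in the MSC-treated lungs. S100A12 (−0.98) and VNN2 (−1.24) were also called lower with the mark as a covariate, beside 1.22% of all genes. The median of the 7 neutrophil markers was −0.90 in that fit. Of 7 platelet markers only ITGA2B (0.03) and TUBB1 (0.08) were measured, with a summed signal of 175 to 179 in the control and 166 to 198 in the MSC-treated lungs. The part of neutrophils and platelets in the values of IL8, PPBP and CXCR2 was not tested.

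The atypical receptors DARC and CXCR7 had the most negative log2 fold changes of the family. DARC, which binds inflammatory CXC and CC ligands on red cells and venular endothelium, fell. It read 8.60, 7.05 and 7.75 in the control lungs and 6.62, 6.93 and 7.12 in the MSC-treated lungs. The groups overlapped narrowly, since MSC-treated replicate 3 exceeded control replicate 2, and control replicate 1 was well above the rest. The log2 fold change was −0.91 (SE 0.37, unadjusted p = 0.039 and adjusted p = 1.0 in limma). DARC stayed called only without control replicate 2 (−1.29), and was −0.51 without control replicate 1, −0.94 without control replicate 3, and −0.78, −0.93 and −1.03 without MSC-treated replicates 1, 2 and 3.

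CXCR7, which binds and removes CXCL12 and CXCL11, read 9.30, 6.97 and 7.34 in the control lungs and 5.96, 6.76 and 6.94 in the MSC-treated lungs. The groups did not overlap, and control replicate 1 stood far above the other 5 arrays. The log2 fold change was −1.31 (SE 0.58), which missed the threshold at an unadjusted p of 0.055 in limma. It was −0.60 without control replicate 1, and was called without control replicate 2 (−1.76) or control replicate 3 (−1.58). Within the marked arrays DARC differed by −1.25 and CXCR7 by −1.55, and within the others by −0.18 and −0.52. With the mark as a covariate the log2 fold changes were −0.72 (SE 0.33) and −1.04 (SE 0.54), and neither was called. Control replicate 1 also stood apart in ALB, the liver-made albumin, at 7.65 against 3.70 to 5.40 on the other arrays, and it had the highest sum of neutrophil markers. Of 5 hepatocyte markers 4 were measured and 0 were called, with a summed linear signal of 237 to 445 in the control and 218 to 293 in the MSC-treated lungs. Apart from ALB, the measured hepatocyte markers did not set control replicate 1 clearly apart. APOA1 read 7.63 there and 7.77 in MSC-treated replicate 3. CYP2C42 read 2.55 there and 2.91 in MSC-treated replicate 1. SERPINA1 was highest in control replicate 1, but only at 5.28 against 5.13 in control replicate 3. The part of hepatocytes and neutrophils in the values of DARC and CXCR7 was not tested.

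The ligands CXCL12, CXCL14 and CXCL17 were lower on average without being called. CXCL17, an attractant of the mucosal epithelium, read 11.06, 11.08 and 10.96 in the control lungs and 10.58, 10.50 and 10.88 in the MSC-treated lungs. All MSC-treated arrays lay below all control arrays, by a log2 fold change of −0.38 (SE 0.16), which is under the fold threshold. The difference was −0.51 in the marked set and −0.35 in the other set. Of 7 measured lung epithelial markers 0 were called, 2 had a positive and 5 a negative log2 fold change, with a median of −0.30. Their summed linear signal was 16280 to 20357 in the control and 13783 to 17286 in the MSC-treated lungs. The part of the lung epithelium in the value of CXCL17 was not tested. CXCL12, which retains and recruits progenitors and lymphocytes through CXCR4, had a log2 fold change of −0.37 (SE 0.19), and CXCR4 one of −0.55 (SE 0.30). Both were called without MSC-treated replicate 2, at −0.51 and −0.87, and CXCR4 was −0.28 without MSC-treated replicate 1. CXCL14, a ligand made by epithelium, had −0.72 (SE 0.49), and −1.16 with a call without MSC-treated replicate 2, against −0.26 without MSC-treated replicate 1 and −0.41 without control replicate 3.

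Of the 8 inflammatory CC ligands, 0 were called, 5 had a positive log2 fold change and 3 a negative one, with a median of 0.15. CCL1, a ligand of activated T cells, read 4.13, 3.63 and 4.07 in the control lungs and 4.15, 4.16 and 4.33 in the MSC-treated lungs. The groups did not overlap, but the gap was small and these values lie at the antigenomic background. Its log2 fold change was 0.27 (SE 0.18), with 0.06 in the marked set and 0.61 in the other set. CCL2, the main attractant of monocytes, had a log2 fold change of −0.82 (SE 0.43). It read 8.93, 8.76 and 7.61 in the control lungs and 7.14, 7.32 and 8.38 in the MSC-treated lungs, so that 1 array of each group lay within the range of the other. CCL2 was called without control replicate 3 (−1.23) or MSC-treated replicate 3 (−1.20). Next to it in role, CCL4 (0.25), CCL8 (0.24), CCL14 (0.06) and CCL3L1 (−0.19) had standard errors from 0.21 to 0.37. CCL11, an eosinophil attractant, had −0.33 (SE 0.21) and was called without control replicate 3 (−0.53) but was −0.18 without control replicate 2, with 2 arrays above the antigenomic mean.

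Of the 7 lymphoid and mucosal CC ligands, 0 were called and 6 had a negative log2 fold change, with a median of −0.22. CCL21, made by lymphatic endothelium and lymph node stroma, had −0.80 (SE 0.39), and CCL19, which shares the receptor CCR7, had −0.42 (SE 0.38). CCL21 was called without control replicate 2 (−1.06) or MSC-treated replicate 2 (−1.22), and CCR7 itself had 0.06 (SE 0.19). CCL28, a mucosal ligand of CCR10, had −0.34 (SE 0.27), and CCL27, a further CCR10 ligand known from skin, had −0.04 (SE 0.19). CCR10 had −0.14 (SE 0.15). CCL25, the thymic and gut ligand of CCR9, had 0.15 (SE 0.15), and CCR9 had −0.09 (SE 0.20). The remaining ligands of this set, CCL20 (−0.22) and CCL22 (−0.07), which attract CCR6- and CCR4-bearing lymphocytes, read at or below 4.65 on all arrays. Without at least 1 of the arrays the sign changed for AMCF-II, CCL3L1, CCL8, CCL14, CCL19, CCL22, CCL27, CCR7, CCR9, CXCR6 and XCR1, none of which was called.

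None of the 8 signalling receptors passed the thresholds, and their median log2 fold change was −0.11. CCR1, a receptor of monocytes and neutrophils for CCL5 and related ligands, had −0.61 (SE 0.41), with log2 signals of 9.01, 7.57 and 8.42 in the control lungs and 7.43, 8.38 and 7.35 in the MSC-treated lungs. As for CXCR2, the 3 marked arrays were the 3 highest. CCR1 was called without control replicate 2 (−0.99) and was −0.27 without control replicate 1. CXCR6, a receptor of resident T and NK cells, had 0.13 (SE 0.26). The linear signals of 3 monocyte and macrophage markers summed to 1677 to 3912 in the control and 2166 to 3609 in the MSC-treated lungs, and to 3165 to 3912 in the marked and 1677 to 2633 in the other arrays. Their part in the values of CCR1 and CCL2 was not tested.

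Many of these genes differed between the marked and the other arrays when treatment was in the fit. At the same thresholds 9 of 36 were higher in the marked arrays, against 8.55% of all genes, and 0 were lower, against 5.24% of all genes. They were CXCR2 (1.64), XCR1 (1.27), CXCL14 (1.19), CCR1 (1.06), CCL21 (1.01), CCL5 (0.88), CCL3L1 (0.87), CXCR4 (0.66) and CXCR6 (0.52). None reached an adjusted p under 0.05 in limma. With the mark as a covariate, CXCL9 (1.12, SE 0.41), CXCL11 (0.86, SE 0.19), XCL1 (0.87, SE 0.28) and CCL5 were called higher in MSC-treated lungs, 4 of 36 against 1.66% of all genes, and 0 were called lower, against 1.22%. Both directions together held 2.88% of all genes. The median over the family was then −0.11 and over all genes −0.01. The mark's effect and the treatment's rest on 1 marked MSC-treated array and 1 control array without the mark.

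**Figure D3:**
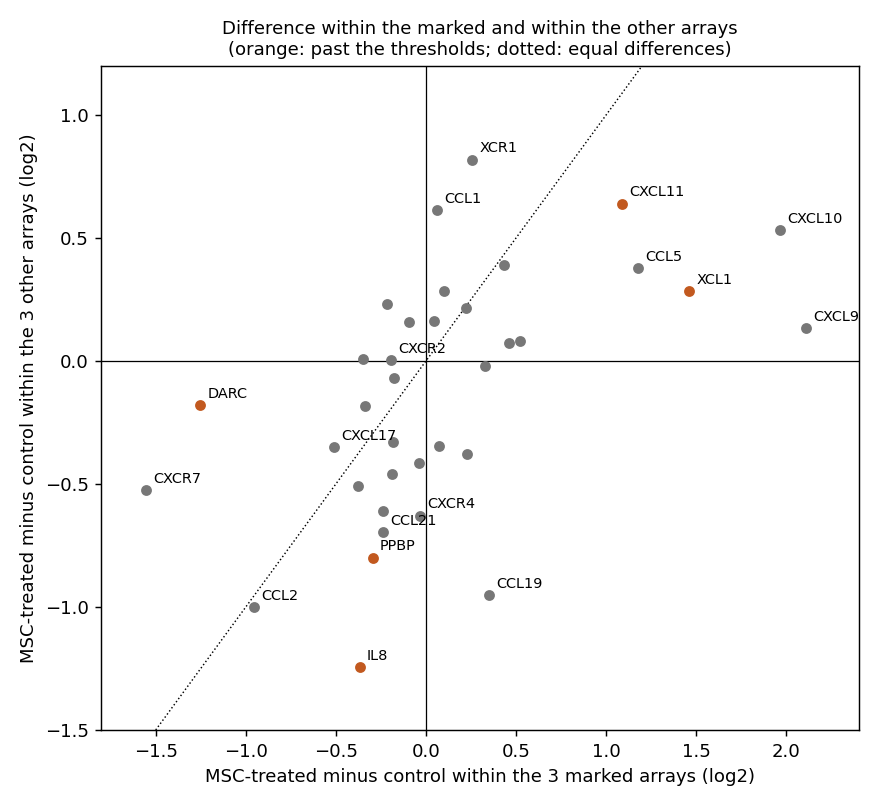
Log2 difference of MSC-treated from control lungs within the 3 marked arrays and within the 3 other arrays, for genes of the family. CXCL9 differed by 2.11 within the marked and by 0.13 within the other arrays, IL8 by −0.37 and −1.24.

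**Figure D4:**
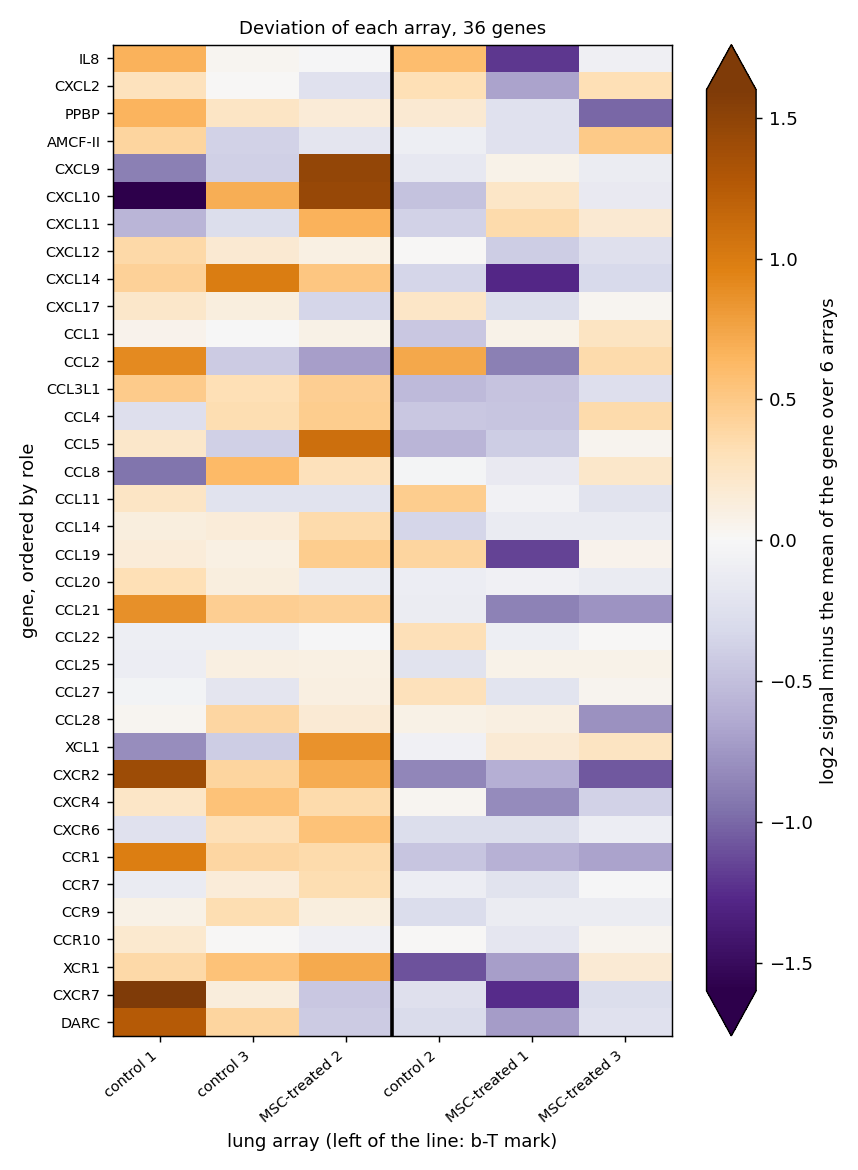
Deviation of each gene of the family from its mean over the 6 arrays, in log2 units, with 1 column per array. CXCL11 and XCL1 lie below their mean in the 3 control arrays, and CXCR2 and CCR1 lie above theirs in the 3 marked arrays.

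Of 34 measured genes of the pathway outside the family, 1 was called, beside 1.86% of all genes. Of 32 listed genes for signalling below chemokine receptors, 19 were measured, 12 with a positive and 7 with a negative log2 fold change, and 0 were called, with a median of 0.04. With the mark as a covariate PLCB2, a phospholipase downstream of Gi-coupled receptors, was called at 0.81. Of 16 cytokines and factors that induce chemokines, 15 were measured and IL6, an inflammatory cytokine, fell. It read 5.72, 5.32 and 5.07 in the control lungs and 4.16, 4.86 and 4.75 in the MSC-treated lungs, without overlap, and its log2 fold change was −0.78 (SE 0.25). Without control replicate 1, 0 of these signalling and inducer genes were called. Of the inducers of CXCL9, CXCL10 and CXCL11, IFNG (−0.03) lay below the antigenomic mean on all 6 arrays, and IRF1 had 0.46 (SE 0.21) and was called at 0.60 with the mark as a covariate. TNF had 0.37 (SE 0.45), and 0.73 with a call with the mark.

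Several of these genes are neighbours in the RefSeq annotation of the pig genome (assembly Sscrofa11.1). On chromosome 8, IL8, AMCF-II, PPBP and CXCL2 lie together with log2 fold changes of −0.87, 0.04, −0.72 and −0.40, and 16 protein-coding genes further on lie CXCL9, CXCL10 and CXCL11 with 0.95, 1.02 and 0.80. The array annotation instead puts the probe sets used for PPBP and CXCL2, the ones of its mixed cross-hybridisation class, on chromosome 5. In the RefSeq order, the chemokine genes were negative or near 0 at one end of this region and positive at the other. On chromosome 12, CCL1, CCL8, CCL11 and CCL2 follow each other without another protein-coding gene between them, with 0.27, 0.24, −0.33 and −0.82. On chromosome 10, CCL21 and CCL19 are adjacent, with −0.80 and −0.42.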

How the data were processed

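The authors deposited log2 signals from RMA, which corrects background, quantile-normalizes and summarizes probes; the submitters' processing notes name Affymetrix Expression Console 1.4. Quantile normalization would hide a change shared by most genes. The batch correction and other annotation described in the study's methods are not part of these values, and liver arrays were not analysed here. A second deposited table repeats the same values under array names. Its 6 value columns, deposited by the authors, served only as a key to read the b-T mark, since no label ties the mark to a sample.

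Of 27558 probe sets 19124 were of the main category, 12909 of which had 1 gene name (9669 by file symbol, 3240 through RefSeq or Ensembl), 214 several and 6001 none. The brightest probe set represented each of 11763 genes, without a filter on signal. The 36 genes of the family came from 42 probe sets, and 35 matched RefSeq.

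MSC-treated arrays were compared with control arrays by limma 3.58.1 (R 4.3.3; lmFit, then eBayes). No covariate entered, and p-values were adjusted by Benjamini-Hochberg over every gene tested. Single genes were also compared by two-sided exact permutation tests. Array numbers limit the precision. Each array name holds its own number after the letters Sus, and no label says what that number stands for. The study's methods name 3 different animals per group. The labels do not repeat this, and p-values measure the spread between these samples. Alternatives were the mark as a covariate, differences within marked and other arrays, a replicate block, further normalization, mean log2 signals of 5 or more, averaged probe sets, trended robust variance, array weights, the methods' t-test (fold above 2.0) and leaving out each array. A treatment-by-mark term and single further probe sets were added after seeing the data.

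Values in every array are given for CXCL9, CXCL11, CCL5, XCL1, IL8 and CXCR2, for genes past the thresholds and for genes whose groups did not overlap. Other genes are given by role, and the arrays of CXCL10, CCL2, CCR1 and IL6 were printed after their values were seen. The genes and lists were chosen with earlier results of these data known. The fit was tested on simulated data. Figures were drawn with Python 3.11.15 and matplotlib 3.10.9.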

Additional observations from a re-analysis of the deposited data

How the results depend on the processing

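The 2 called rises and 3 called falls of the family became 4 and 0 with the mark in the fit, 3 and 1 with the replicate block, 3 and 5 with array weights, and 0 and 0 by the methods' t-test with a fold above 2.0, which put 3 of the 36 genes at p under 0.05 and 0 after Benjamini-Hochberg adjustment. Leaving out each array gave 2 to 3 rises and 0 to 6 falls. There were 0 falls without control replicate 1 or MSC-treated replicate 1, and 6 without control replicate 2 or MSC-treated replicate 2. Falls over all genes numbered 129 without control replicate 1 and 104 without MSC-treated replicate 1. They numbered 321 without control replicate 2 and 420 without MSC-treated replicate 2. Over all genes, the 77 rises became 195 with the mark, 65 with the replicate block and 100 with array weights. They became 42 at a minimum mean log2 of 5, 0 by the methods' t-test and 77 to 188 without single arrays. The 142 falls became 144 with the mark, 101 with the replicate block and 187 with array weights. They became 2 by the methods' t-test and 89 to 420 without single arrays. The 1 called signalling or inducer gene became 4 with the mark, 2 with quantile normalization repeated, 0 at a minimum mean log2 of 5, 0 by the methods' t-test and 0 to 2 without single arrays. The cause of these shifts was not tested. The median over the family stayed negative, from −0.29 to −0.04 without single arrays and at −0.04 and −0.05 within the marked and the other arrays.

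CXCR2 changed sign to 0.0045 within the arrays without the mark and to 0.066 on its second probe set, which is at background. The deviations of same-numbered arrays from their group means correlated at −0.41, −0.49 and 0.06 across genes. Same-numbered arrays always differed in the mark, so these values cannot show whether replicate numbers pair the arrays. With the replicate block CXCL11, XCL1, CXCL9 and PPBP were called. With 3 arrays per group, and 1 marked MSC-treated array, small differences cannot be resolved. Signals near the antigenomic mean limit AMCF-II, CCL1, CCL11 and CCL20.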

Other observations

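Further chemokine genes were found only through RefSeq or Ensembl, without a family symbol in the array annotation, and so lie outside the 36. CCL24, an eosinophil attractant, had a log2 fold change of 0.06 (SE 0.22), with 6.63, 6.35 and 6.46 in control replicates 1, 2 and 3 and 6.93, 6.17 and 6.53 in MSC-treated replicates 1, 2 and 3. CCL26, of the same eotaxin group, had −0.03 (SE 0.22), and CCL16 had 0.12 (SE 0.18). CXCR5, the follicular homing receptor of B cells, had −0.12 (SE 0.45), with 4.98, 3.43 and 5.20 in the control lungs and 4.13, 4.77 and 4.35 in the MSC-treated lungs. The groups overlapped for CCL24 and CXCR5, and none of these genes passed the thresholds with or without the mark as a covariate.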
